A study of Camellia sinensis with 12 samples.

Results

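Heat shock proteins and heat shock factors were followed in withering leaves of tea (Camellia sinensis, cultivar Longjing43). The genes were chosen by their descriptions in the deposited table. A description had to name heat shock, HSP20 or the BCL-2-associated athanogene and not DNAJ, and the counts of the gene over the 12 libraries had to reach a minimum sum, which the members met with 135 counts or more and the excluded genes missed with 118 or fewer. Of 52332 genes in the table, 157 had such a description and 105 also met the minimum. They were placed by description into 43 small heat shock proteins (small HSP), 18 genes of the HSP70 family, 4 of the HSP90 family, 5 genes of heat shock protein 101 (HSP100 class), 3 of the chaperonin HSP60, 12 BAG genes (BCL-2-associated athanogene), 19 heat shock transcription factors (HSFs) and 1 heat shock factor binding protein.

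Heat shock proteins are molecular chaperones, which hold, fold or rescue other proteins, and many are made in larger amounts when cells are heated, dried or otherwise stressed. Small HSP bind unfolding proteins without using ATP, HSP70 and HSP90 fold and mature clients in cycles driven by ATP, the HSP100 disaggregase pulls proteins out of aggregates, and chaperonins of the HSP60 type fold proteins inside a barrel in mitochondria and chloroplasts. In Arabidopsis, HSFs of class A activate heat shock genes through heat shock elements in their promoters, whereas most HSFs of class B lack the activation motif and several act as repressors.

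Shoots with a bud and its youngest leaves were plucked, kept at 25 °C and sampled after 0, 9, 15 and 24 h of withering, with 3 libraries per time, all from leaves of the same cultivar. The sample labels give an illumination of 0 lux, and the study's methods describe lit withering. Later times had no unwithered control leaves, so withering, the hour of the day and the time since plucking cannot be told apart. Whether libraries of 1 time stem from separately plucked leaves is not stated, and p-values therefore speak only of the spread among these libraries, which could be technical.

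Levels are given as counts per 1000000 (CPM) after TMM scaling in edgeR, a trimmed mean that corrects library totals for composition. Times were compared by the quasi-likelihood test of edgeR, with Benjamini-Hochberg adjustment over 26712 genes. A gene was called higher or lower at an adjusted p under 0.05. All 105 members passed the filter on low counts. Libraries that do not overlap between times were common in the whole table. At 9, 15 and 24 h, 67.0%, 68.8% and 76.1% of all genes had no library overlapping those of 0 h. Among the members the shares were 73.3%, 69.5% and 78.1%. From 9 to 15 h and from 15 to 24 h they were 55.0% and 60.4% of all genes and 62.9% and 73.3% of the members. CPM is not divided by transcript length, so an order of genes by CPM is an order of counts and not of transcript amounts. Libraries held 64931031 to 118261728 counts, and the 105 genes together took 0.645 to 0.660% of them at 0 h, 0.966 to 1.04% at 9 h, 0.924 to 0.938% at 15 h and 0.749 to 0.796% at 24 h. Leaf mesophyll markers were abundant at 0 h, with a sum of 30151 to 37878 CPM over 107 genes of which 15 were at 0, and their sum fell to 4522 to 5489 CPM at 24 h, where 61 of 87 tested were lower and 16 higher than at 0 h. Stem and vascular markers summed to 487 to 544 CPM at 0 h and 25882 to 26950 CPM at 24 h over 82 genes of which 10 were at 0. A pair of laccase genes, MSTRG.10839 and MSTRG.33660, held 67.1% and 30.8% of that sum at 24 h, and 22 of 63 tested were higher and 21 lower. In bulk leaves, fewer cells of a type and less RNA per cell cannot be told apart, and the part of these markers in the results was not tested.

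During withering the family did not move as a block. Under TMM scaling, HSP70 and HSP101 genes were mostly higher from 9 h on, and small HSP genes split between rises and falls. With library size as the only scaling, 8 HSP70 genes were higher and 7 lower after 24 h. Of the HSP101 genes, 1 was then higher and 1 lower. Under TMM, 5 of 7 HSFs of class B were higher and 1 of the HSFA2 genes lower after 24 h. Of 11 HSP genes placed in the chloroplast or the mitochondrion by their description or their Arabidopsis namesake, 9 were lower after 24 h (all genes, 39.1%). That set was formed once the values were known, and BAG genes and HSFs were not sorted in this way. Against 0 h, 43 members were higher and 27 lower after 9 h, beside 27.1% higher and 26.8% lower among all genes tested. At 15 h, 40 members were higher and 24 lower (all genes, 30.3% and 29%). At 24 h, 47 members were higher and 36 lower (all genes, 34.7% and 39.1%). The comparisons at 9, 15 and 24 h share the 0 h libraries. The median log2 fold change (log2FC) of the members was 0.29, 0.12 and 0.34 at 9, 15 and 24 h, beside -0.02, -0.01 and -0.14 for all genes. With library size as the only scaling, the medians of all genes became -0.22, -0.30 and -0.81, those of the members 0.09, -0.17 and -0.33, and the members divided into 37 higher and 34 lower after 9 h, 37 and 37 after 15 h, and 28 and 51 after 24 h.

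**Figure D1:**
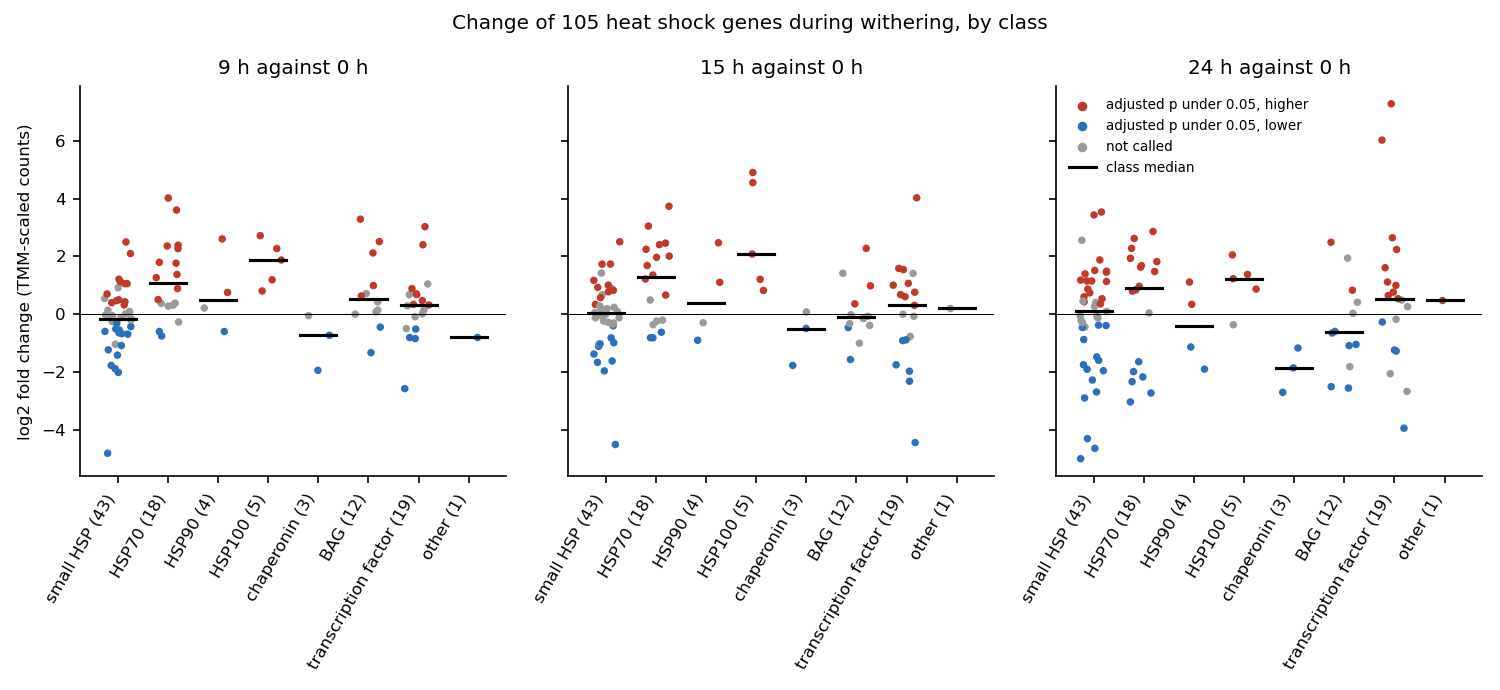
Log2 fold change of each of the 105 genes at 9, 15 and 24 h against 0 h, by class, with the number of genes in brackets. Each point is a gene, red where it was called higher and blue where it was called lower, and the black line is the class median. The HSP70 median lies at 1.08, 1.29 and 0.91, and the small HSP median at -0.16, 0.06 and 0.10 (-0.36, -0.23 and -0.58 with library size as the only scaling). MSTRG.45430 and, after 15 h, CSS003170, which had no count at one of the times, stand at the bound set by 3 counts.

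Over time, 34 members were higher at 9, 15 and 24 h alike, where 18% of all genes were, and 16 were lower at all of them, where 18.1% of all genes were. A further pattern was a passing rise, with a gene higher at 9 or 15 h than at 0 h and lower after 24 h than after 15 h. It was seen in 16 members, 6 of them HSP70, 3 HSP101, 3 BAG, 2 HSP90, 1 small HSP and 1 HSF, and in 7.99% of all genes. Between neighbouring times, 28 members were higher and 18 lower after 15 h than after 9 h (all genes, 19.8% and 18.1%), and 30 were higher and 42 lower after 24 h than after 15 h (all genes, 25.9% and 30.8%). The highest mean level fell at 0 h in 26 members, after 9 h in 25, after 15 h in 18 and after 24 h in 36. Over all genes these shares were 36.2%, 17.2%, 13.6% and 33.1%, beside 24.8%, 23.8%, 17.1% and 34.3% of the members. At least 1 call against 0 h was made for 94 of 105 members (84.1% of all genes), and the 11 without a call were 7 small HSP, 2 BAG, 1 HSP70 and 1 HSF.

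The summed CPM of a class shows where the counts of the family lay. The 18 HSP70 genes summed to 2839 ± 104 CPM at 0 h (SD, n = 3), 6061 ± 340 after 9 h, 5728 ± 103 after 15 h and 6010 ± 471 after 24 h. With library size as the only scaling it was 3472, 6437, 5720 and 4625 CPM, so the level after 24 h stood near that after 9 h under TMM and below it without. The single gene MSTRG.2303 held 36.2% of it at 0 h and 54.8% after 24 h. Without that gene the sum was 1812 CPM at 0 h, 3393 after 9 h and 2718 after 24 h. The HSP90 sum rose from 379 ± 25.8 to 708 ± 41.7 and 793 ± 31.6 CPM and stood at 422 ± 25.5 after 24 h. The HSP101 sum was 29.4 ± 1.23 CPM at 0 h, 172 ± 15.3 after 9 h, 163 ± 12.9 after 15 h and 58.9 ± 5.53 after 24 h. The HSP90 and HSP101 sums peaked at 9 or 15 h under both scalings, whereas the HSF sum was highest at the last time, with 485 ± 7.70 CPM at 0 h, 598 ± 24.3 after 9 h, 762 ± 52.7 after 15 h and 1475 ± 104 after 24 h. The 43 small HSP genes as a sum went from 1140 ± 38.7 to 1553 ± 97.4 CPM after 24 h. Their direction depends on the scaling. With library size alone the sum was 1394 ± 28.5 at 0 h and 1195 ± 46.5 after 24 h. The HSP90 sum turned likewise (464 and 325). So did the BAG sum, with 237 and 308 CPM under TMM and 289 and 237 with library size alone. The factor binding protein went from 77.3 to 110 CPM under TMM and from 94.6 to 84.5 with library size alone.

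**Figure D2:**
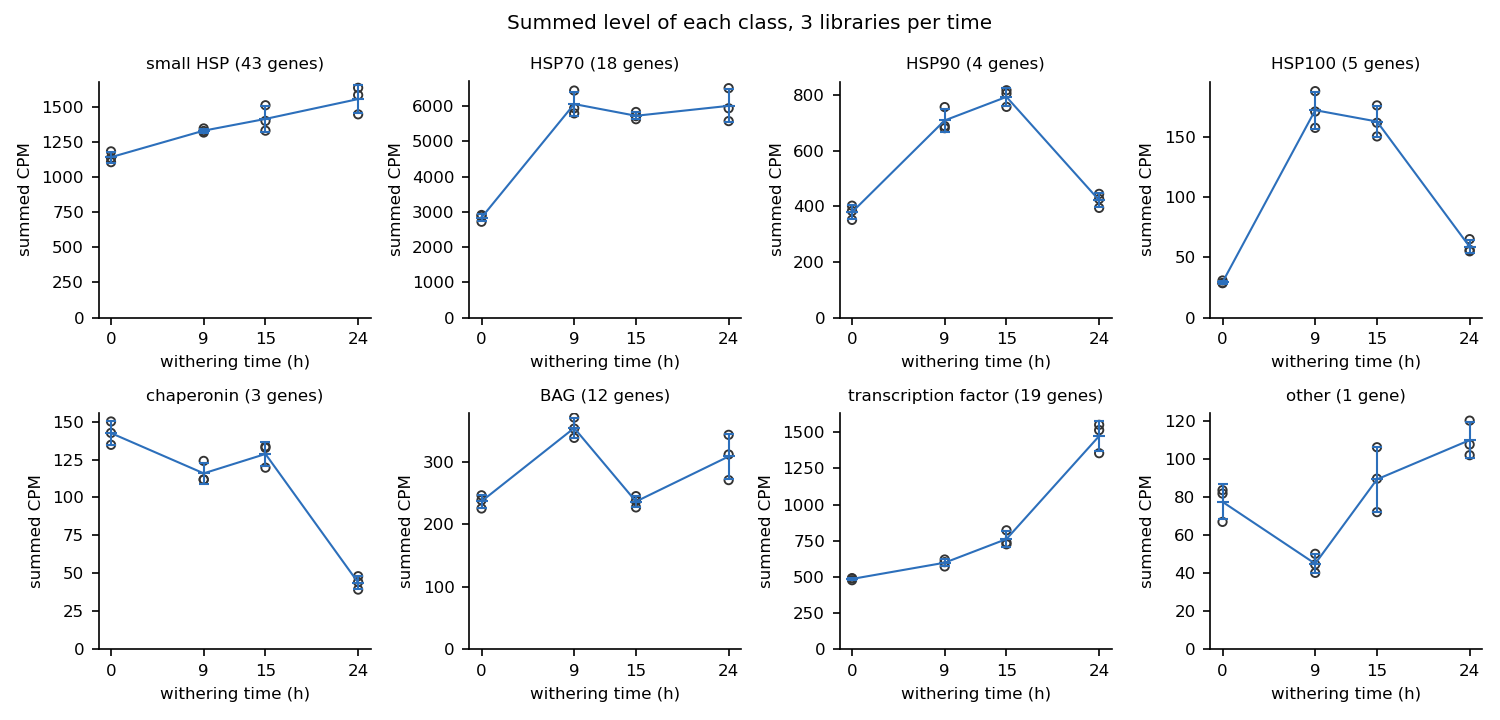
Summed CPM of the genes of each class against withering time in hours, with the factor binding protein as other and the HSFs as transcription factor. Circles are the 3 libraries of each time, and the line joins their means with 1 SD. The HSP101 sum stands at 29.4 CPM at 0 h, 172 after 9 h and 58.9 after 24 h, the HSF sum climbs from 485 to 1475 CPM, and the chaperonin sum drops from 142 ± 7.70 to 43.8 ± 4.43 CPM.

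HSP70 proteins bind short exposed stretches of unfolded proteins and are directed to clients by DNAJ partners. Of the 18 genes, 11 were higher and 2 lower after 9 h, 11 higher and 3 lower after 15 h, and 11 higher and 6 lower after 24 h, and the same 11 genes were higher at all of these times. With library size as the only scaling, 11, 11 and 8 were higher and 3, 4 and 7 lower. Of all genes under TMM, 27.1%, 30.3% and 34.7% were higher and 26.8%, 29% and 39.1% lower at these times. The 6 lower HSP70 genes after 24 h were 33.3% of the class. The counts of HSP90 and HSP101 genes below stand beside the same shares of all genes. The 5 genes described as heat shock cognate protein 70-1 (HSC70-1), in Arabidopsis a cytosolic HSP70 that is made also without stress, were all among the 11. MSTRG.2303, with the highest CPM, measured 987, 1038 and 1054 CPM in the 3 libraries at 0 h, 2861, 2629 and 2513 after 9 h, 2355, 2362 and 2454 after 15 h and 3573, 3016 and 3288 after 24 h. Every later library was above every 0 h library, and the log2FC were 1.38 (SE 0.08, adjusted p = 7.82e-09, edgeR), 1.22 and 1.68 (SE 0.08). MSTRG.14334 rose mainly up to 15 h, from 63.7, 66.6 and 67.1 CPM at 0 h to 131, 122 and 113 after 9 h, 305, 316 and 316 after 15 h and 422, 386 and 407 after 24 h. The libraries of these times did not overlap, and the log2FC after 24 h was 2.62 (SE 0.08, adjusted p = 5.68e-12, edgeR). MSTRG.39875 and MSTRG.41440 were likewise highest after 24 h, with log2FC of 2.86 and 2.28.

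MSTRG.15055, also an HSC70-1 gene, followed another course. It measured 0.872, 1.28 and 0.944 CPM at 0 h, 17.5, 16.6 and 16.5 after 9 h, 14.2, 13 and 14.3 after 15 h and 3.37, 3.22 and 3.04 after 24 h. It rose by 4.02 on the log2 scale after 9 h (SE 0.15, adjusted p = 2.21e-10, edgeR) and was lower after 24 h than after 15 h by a log2FC of -2.11 (SE 0.14, adjusted p = 5.17e-08), while the other 4 HSC70-1 genes were higher after 24 h than after 15 h (1 of 5 lower, 4 of 5 higher). With library size as the only scaling, the rise from 15 to 24 h of MSTRG.2303 was 0.09 (adjusted p = 0.267, edgeR) that of MSTRG.39875 was 0.03 (adjusted p = 0.812), and that of MSTRG.14334, 0.38 under TMM, was 0.00017 (adjusted p = 1).

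A passing rise was seen in 5 of the 6 other HSP70 genes that rose. MSTRG.37139, described as heat shock protein 70, measured 50.1, 52.4 and 50.7 CPM at 0 h, 659, 607 and 599.5 after 9 h, 429, 412 and 427 after 15 h and 213, 174 and 199 after 24 h. The libraries of the 4 times were separate, with log2FC of 3.61 (SE 0.09, adjusted p = 6.21e-12), 3.05 and 1.94 (SE 0.08, adjusted p = 1.59e-10, edgeR). MSTRG.50547, an HSP70 family gene, measured 124, 137 and 134 CPM at 0 h, 708, 669 and 695 after 9 h, 717, 699.5 and 685 after 15 h and 456, 469 and 473 after 24 h, a plateau followed by a log2FC of -0.59 from 15 to 24 h (SE 0.06, adjusted p = 4.67e-06, edgeR). MSTRG.9381, MSTRG.43311 and MSTRG.27278 rose by 2.36, 2.27 and 1.77 after 9 h and were each lower after 24 h than after 15 h. MSTRG.21330, described as heat shock protein 91, which in Arabidopsis is a relative of HSP70, rose by 0.51, 0.66 and 0.84. Over the whole class, 4 genes were higher and 12 lower after 24 h than after 15 h (all genes, 25.9% and 30.8%).

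The 3 genes of chloroplast HSP70-2, a chaperone of the stroma, went the other way. MSTRG.9863 measured 528, 547 and 543 CPM at 0 h, 338, 313 and 311 after 9 h, 305, 310.1 and 308 after 15 h and 153, 128 and 129 after 24 h. MSTRG.33622 measured 529.8, 565 and 536 CPM at 0 h and 185, 177 and 161 after 24 h. For both genes the 0 h libraries were above all others and the 24 h libraries below all others, with log2FC of -1.98 (SE 0.08, adjusted p = 1.04e-10) and -1.64 (SE 0.10, adjusted p = 3.68e-09, edgeR) after 24 h. MSTRG.7937 went from 19.2 to 21.7 CPM at 0 h to 2.85 to 3.32 CPM after 24 h, where it had fallen to a log2FC of -2.72 (SE 0.13), and was not called after 9 h (adjusted p = 0.0675, edgeR). 

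A pair of genes described as heat shock protein 70 fell late. MSTRG.20978 measured 48.9, 49 and 54.5 CPM at 0 h, 65.5, 69.9 and 63.5 after 9 h, 87.2, 38.9 and 88.6 after 15 h and 12.8, 8.38 and 8.99 after 24 h. The 24 h libraries were below all others, with a log2FC of -2.33 (SE 0.26, adjusted p = 2.68e-06, edgeR), and after 15 h replicate 2 stood apart from the other libraries. The gene was not called after 15 h (log2FC 0.49, adjusted p = 0.0999), and without that library it was called, with a log2FC of 0.79 and an adjusted p of 0.000697. MSTRG.19900 measured 9.1 to 15.7 CPM at 0 h and 0.792 to 2.47 after 24 h, a log2FC of -3.03 (SE 0.36). The sixth HSP70 gene lower after 24 h was MSTRG.26738, described as heat-shock protein 70T-2 (log2FC -2.17). MSTRG.11625, described as heat shock protein 70B, was called at none of the 3 times against 0 h, with 2.17 to 2.51 CPM at 0 h and 1.9 to 3.1 after 24 h.

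**Figure D3:**
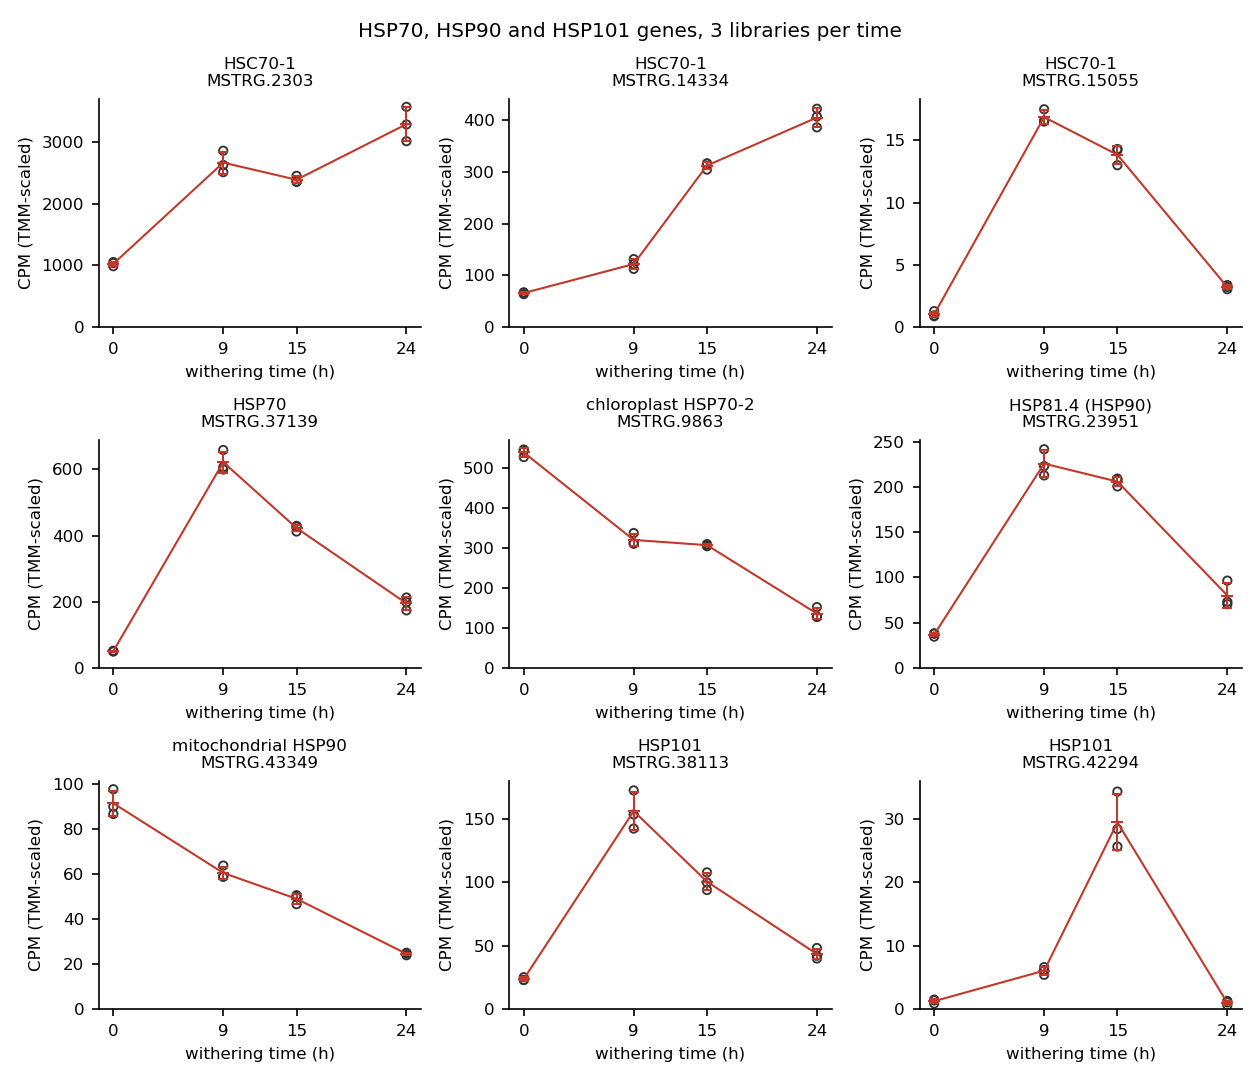
CPM of 9 HSP70, HSP90 and HSP101 genes against withering time in hours, each panel with its own scale from 0. Circles are single libraries, and the red line joins the means of 3 libraries with 1 SD. MSTRG.2303 and MSTRG.14334 end above their start, MSTRG.15055, MSTRG.37139, MSTRG.23951 and MSTRG.38113 peak after 9 h, MSTRG.42294 peaks after 15 h, and MSTRG.43349 declines at each step, and MSTRG.9863 falls by 9 h and again after 15 h.

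HSP90 proteins mature kinases, receptors and other signalling proteins, and in unstressed Arabidopsis cells they hold HSFs inactive. Of the 4 genes, 2 were higher at each of 9, 15 and 24 h (1 after 24 h with library size as the only scaling), 1 was lower at 9 and after 15 h and 2 were lower after 24 h. MSTRG.23951, described as HSP81.4, a cytosolic HSP90, measured 34.7, 38.4 and 38 CPM at 0 h, 241, 213 and 223 after 9 h, 209, 208 and 200.5 after 15 h and 96.5, 73.2 and 70.5 after 24 h. All later libraries were above those of 0 h, and the log2FC were 2.61 (SE 0.11, adjusted p = 7.5e-10), 2.48 and 1.11 (SE 0.11, adjusted p = 7.04e-07, edgeR). The other HSP81.4 gene, MSTRG.45411, measured 277, 246 and 226 CPM at 0 h, 450.5, 416 and 398 after 9 h, 497, 559 and 557 after 15 h and 323, 296 and 331 after 24 h. It peaked after 15 h, with log2FC of 0.76, 1.11 (SE 0.09, adjusted p = 2.43e-07) and 0.34, and the value after 24 h turned to -0.33 (adjusted p = 0.00382, edgeR) with library size as the only scaling.

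MSTRG.43349, described as HSP89.1, in Arabidopsis the mitochondrial HSP90, measured 90.1, 97.9 and 86.8 CPM at 0 h, 63.9, 58.9 and 59 after 9 h, 50.7, 49.9 and 46.7 after 15 h and 24.8, 25.1 and 24 after 24 h. Its libraries descended from time to time without overlap, to a log2FC of -1.90 (SE 0.08, adjusted p = 1.09e-10, edgeR). CSS028648, described as heat shock protein 90.1, stayed under 1 CPM in every library, and its call after 24 h (log2FC -1.13, adjusted p = 0.0358) was lost without 0 h replicate 1 (adjusted p = 0.0771), 0 h replicate 2 (0.0915), 24 h replicate 1 (0.0778) or 24 h replicate 3 (0.051), and with the replicate number as a block (0.0644). A pair of further HSP90 relatives carry the bacterial name htpG and so fell outside the members. MSTRG.48049 averaged 442 CPM at 0 h, 1814 after 9 h, 1560 after 15 h and 413 after 24 h (log2FC 2.04, SE 0.11, adjusted p = 5.1e-09 after 9 h, edgeR), and MSTRG.50081 averaged 576, 339, 215 and 60.3 CPM (log2FC -3.26, SE 0.09, adjusted p = 3.44e-12 after 24 h). The first rose in passing and the second fell throughout.

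Heat shock protein 101 is the cytosolic disaggregase that plants need to survive severe heat. All 5 genes were higher after 9 h and after 15 h than at 0 h, and 4 were higher after 24 h, a count that with library size as the only scaling was 1 higher and 1 lower after 24 h and 5 higher at the earlier times. MSTRG.38113 held 80.6% of the class sum at 0 h and measured 23, 22.9 and 25.1 CPM at 0 h, 172, 142 and 153 after 9 h, 108, 99.8 and 93.9 after 15 h and 42.1, 48.2 and 39.9 after 24 h. The libraries of the 4 times did not overlap, with the peak after 9 h (log2FC 2.72, SE 0.10, adjusted p = 2.01e-10) and a value of 0.87 (SE 0.10) after 24 h. MSTRG.42294 measured 1.49, 1.38 and 0.880 CPM at 0 h, 6.16, 5.41 and 6.62 after 9 h, 34.3, 28.4 and 25.7 after 15 h and 1.06, 1.28 and 0.602 after 24 h. MSTRG.8655 measured 0.826, 1.0 and 0.740 CPM at 0 h, 2.79, 3.16 and 3.54 after 9 h, 26.6, 26 and 24.7 after 15 h and 3.33, 1.3 and 1.36 after 24 h. Both genes peaked sharply after 15 h, where no library overlapped with any of another time, at log2FC of 4.55 (SE 0.26, adjusted p = 7.3e-09) and 4.91 (SE 0.32, adjusted p = 2.94e-08, edgeR). From 15 to 24 h their log2FC were -4.91 and -3.67. MSTRG.24602 was highest after 24 h instead, with 7.79, 8.23 and 8.98 CPM after 1.72, 2.32 and 1.96 at 0 h (log2FC 2.06, SE 0.18). MSTRG.39946 rose by 1.19, 1.21 and 1.38, and without 0 h replicate 2 its call after 9 h was lost (adjusted p = 0.0546).

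Small HSP are among the most strongly heat-induced proteins of plants. Of the 43 genes here, 37 carry the description HSP20-like chaperones superfamily, which in Arabidopsis covers cytosolic small HSP and also other proteins with an alpha-crystallin-like fold, so it does not tell which of the 37 are heat-induced small HSP. The class divided into 12 higher and 15 lower after 9 h, 10 and 10 after 15 h, and 17 and 15 after 24 h (10 and 22 after 24 h with library size as the only scaling). These were 27.9% and 34.9% of the class after 9 h, 23.3% and 23.3% after 15 h, and 39.5% and 34.9% after 24 h, where the shares of all genes were 27.1% and 26.8%, 30.3% and 29%, and 34.7% and 39.1%, so a split of this kind was also that of the whole table. Among the 37 genes of the superfamily description, 17 were higher and 11 lower after 24 h, with a median log2FC of 0.36. Among the 6 genes with a description of their own, which are 3 of HSP21, 2 of the 17.6 kDa class II HSP and 1 of the mitochondrial HSP23.6, 0 were higher and 4 lower after 24 h, with a median of -1.71.

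HSP21 is the small HSP of the chloroplast, which protects photosystem proteins in Arabidopsis. MSTRG.8425 measured 48.1, 47.1 and 52.5 CPM at 0 h, 29.7, 28.9 and 33.2 after 9 h, 22.6, 22.7 and 27.2 after 15 h and 2.11, 1.28 and 1.19 after 24 h. The libraries descended without overlap between 0 h, the 2 middle times as 1 set and 24 h, and the log2FC after 24 h, -5.00 (SE 0.19, adjusted p = 7.15e-11, edgeR), was the lowest of the small HSP class. MSTRG.5384, another HSP21 gene, rose by 0.50 and 0.93 at 9 and 15 h (adjusted p = 0.0365 and 0.000782, edgeR) and was not called after 24 h (-0.29, adjusted p = 0.184). MSTRG.16086, the third, was under 1 CPM in every library and was not called. The class II genes MSTRG.25807 and MSTRG.7837 fell from 12.4 to 14.5 and 27.9 to 30.6 CPM at 0 h to 1.06 to 2.69 and 7.69 to 12.7 CPM after 24 h, log2FC of -2.89 (SE 0.29) and -1.47 (SE 0.16). The gene of HSP23.6, MSTRG.36151, held its level to 15 h (-0.17 and -0.12, not called) and fell by 1.95 on the log2 scale after 24 h (SE 0.20).

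Within the HSP20-like description the deepest early fall was that of MSTRG.21188, which measured 18.1, 22.5 and 21.8 CPM at 0 h, 0.726, 1.1 and 0.405 after 9 h, 1.05, 0.839 and 0.851 after 15 h and 1.03, 1.17 and 0.966 after 24 h. All later libraries were at or under 1.17 CPM, and the log2FC after 9 h was -4.81 (SE 0.28, adjusted p = 1.36e-08, edgeR), followed by no called change between 9 and 15 h (0.30) or between 15 and 24 h (0.20). MSTRG.39863 fell later, from 109.5, 118 and 112 CPM at 0 h and 112, 120.03 and 111 after 9 h to 62.2, 57.3 and 73.2 after 15 h and 18.5, 16.5 and 17.7 after 24 h. Its 0 and 9 h libraries overlapped, and the log2FC were 0.02, -0.82 and -2.69 (SE 0.10, adjusted p = 3.9e-11, edgeR). MSTRG.45337 had the same course, with 0.10, -1.38 and -1.90. MSTRG.37825 and MSTRG.39853 dipped after 9 h, to log2FC of -2.01 and -1.08, and were higher again after 15 h than after 9 h by 1.67 (adjusted p = 0.00458, edgeR) and 1.17 (adjusted p = 2.16e-05).

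Other HSP20-like genes rose. MSTRG.18723 measured 0.849, 0.722 and 0.803 CPM at 0 h, 4.94, 3.81 and 4.69 after 9 h, 2.14, 2.56 and 3.22 after 15 h and 10.7, 6.99 and 8.03 after 24 h. Its level was lower after 15 h than after 9 h and highest after 24 h, where the log2FC was 3.44 (SE 0.23, adjusted p = 1.27e-08, edgeR). MSTRG.20225 measured 82.8, 75.2 and 88.2 CPM at 0 h, 106, 113 and 122 after 9 h, 147, 163 and 185 after 15 h and 287, 294 and 325 after 24 h, and its libraries rose from time to time without overlap, to a log2FC of 1.88 (SE 0.10, adjusted p = 1.59e-09). MSTRG.39323, which held 12.8% of the class sum at 0 h, rose by 0.70 after 9 h (SE 0.13) and stayed there (0.78 and 0.74). At 24 h its value was 0.07 (adjusted p = 0.581, edgeR) with library size as the only scaling. MSTRG.12410 was at 1.06, 1.17 and 1.18 after 9, 15 and 24 h, and MSTRG.9724 at 1.12, 0.83 and 1.15. With library size as the only scaling, MSTRG.12410 was at 0.86 after 9 h and 0.51 after 24 h. The step of MSTRG.9724 from 15 to 24 h was then -0.05 (adjusted p = 0.545, edgeR). The only members lying within 100 kb of another member were 3 pairs of small HSP genes. In 2 of them both genes were higher after 24 h. MSTRG.18348 and MSTRG.18345, 82306 bases apart with 1 gene between them, were so by 0.60 and 1.46 (adjusted p = 0.00126 and 0.00576, edgeR). With library size as the only scaling neither was called, at -0.064 (adjusted p = 0.662) and 0.80 (adjusted p = 0.0925, edgeR). In another pair MSTRG.10319 was higher by 3.54, and MSTRG.10325 was not called (0.27, adjusted p = 0.451, edgeR). For MSTRG.29865 and MSTRG.29866 on Scaffold372 with 6450 bases and no other gene between them, the values were 1.49 (SE 0.14) and 1.13 (SE 0.16).

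**Figure D4:**
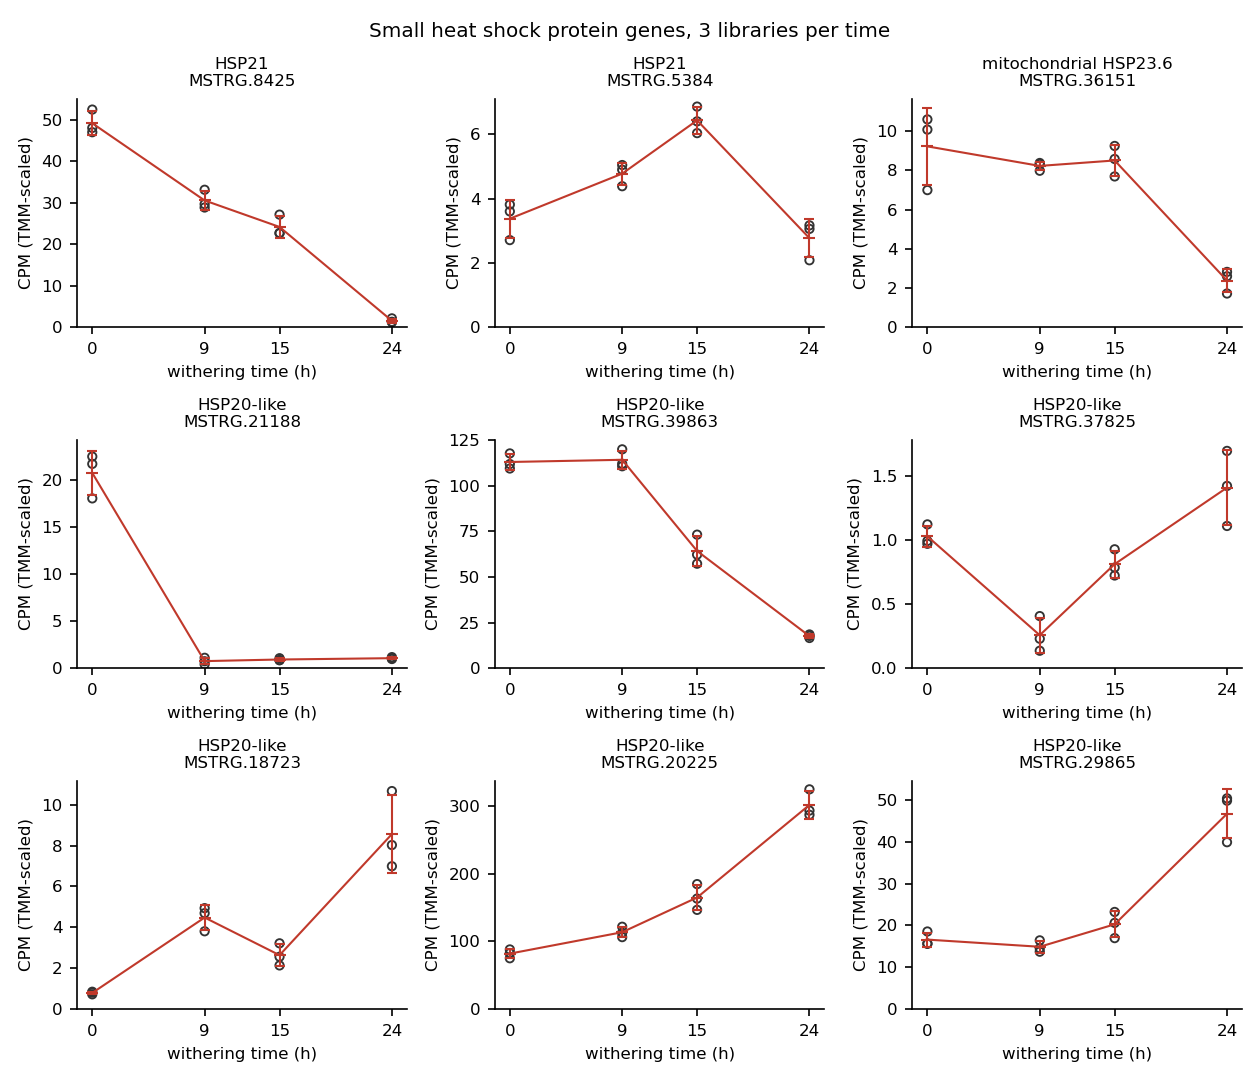
CPM of 9 small HSP genes against withering time in hours, each panel with its own scale from 0. Circles are single libraries, and the red line joins the means of 3 libraries with 1 SD. MSTRG.8425 drops from 47.1 to 52.5 CPM at 0 h to 1.19 to 2.11 CPM after 24 h, MSTRG.21188 is at its low level from 9 h on, MSTRG.5384 peaks after 15 h, and MSTRG.18723 and MSTRG.20225 are highest after 24 h.

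The chaperonin genes fell. HSP60 folds proteins in the mitochondrial matrix together with a co-chaperonin. Under TMM scaling, MSTRG.13138 held its level until late. It measured 90.6, 99.1 and 92.7 CPM at 0 h, 97.2, 89.1 and 86.7 after 9 h and 103, 103 and 92.5 after 15 h. After 24 h it measured 27.9, 23.4 and 26.7 CPM. Only the 24 h libraries stood apart, at a log2FC of -1.85 (SE 0.09, adjusted p = 5.03e-10, edgeR). With library size as the only scaling it was called lower already after 9 h (-0.25, adjusted p = 0.0216) and 15 h (-0.21, adjusted p = 0.0467, edgeR). MSTRG.22089, described as HSP60-3A, had already dropped after 9 h, from 11.6, 13.8 and 12.5 CPM to 2.86, 3.8 and 3.26 (log2FC -1.94, SE 0.23), and reached -2.70 after 24 h. The third, MSTRG.38884, was at a log2FC of -0.72 after 9 h and -1.17 after 24 h.

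BAG genes and HSFs were not sorted by compartment. From the HSP genes, 11 were grouped whose description, or Arabidopsis namesake, places the protein in the chloroplast or the mitochondrion. The grouping was made after the values were seen and is therefore given without a test. The 11 genes are the 3 chloroplast HSP70-2 genes, the 3 HSP21 genes, HSP89.1, the 3 HSP60 genes and HSP23.6. Of these, 1 was higher and 6 lower after 9 h, 1 higher and 7 lower after 15 h, and 0 higher and 9 lower after 24 h, where their median log2FC was -1.90. Of all genes, 27.1%, 30.3% and 34.7% were higher and 26.8%, 29% and 39.1% lower at 9, 15 and 24 h. The leaf mesophyll markers fell over the same times, with a median of -1.09, -0.96 and -2.30 at 9, 15 and 24 h, and their part in these values was not tested.

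HSFs bind heat shock elements as trimers. Of the 19 genes, 8 were higher and 4 lower after 9 h, 9 and 6 after 15 h, and 10 and 4 after 24 h (7 and 7 after 24 h with library size as the only scaling). Between 15 and 24 h, 11 were higher and 2 lower (all genes, 25.9% and 30.8%), or 7 and 6 with library size as the only scaling. By their names 11 belong to class A, 7 to class B and 1 to class C, with HSF3 and HSF4 counted as HSFA1B and HSFB1, their names in Arabidopsis. Of the class B genes, 4 were higher and 0 lower after 9 h, 6 and 1 after 15 h, and 5 and 0 after 24 h. Of the class A genes, 3 were higher and 4 lower after 9 h, 3 and 4 after 15 h, and 5 and 3 after 24 h. Of all genes, 27.1%, 30.3% and 34.7% were higher and 26.8%, 29% and 39.1% lower at these times. The class B count after 24 h depends on the scaling. With library size alone, MSTRG.36294 was not called (0.10, adjusted p = 0.421) and CSS003170 was called lower (-3.33, adjusted p = 0.0476, edgeR).

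HSFB3 gene MSTRG.40867, at Scaffold598:1002677-1004318 of the table's coordinates, showed the steepest climb of the factors counted in every library. It measured 2.88, 1.83 and 2.83 CPM at 0 h, 17.9, 22.3 and 21.3 after 9 h, 39.7, 38.3 and 44.6 after 15 h and 141, 177 and 170.4 after 24 h. No library overlapped with one of another time, and the log2FC were 3.03 (SE 0.17, adjusted p = 6.71e-09), 4.03 and 6.02 (SE 0.19, adjusted p = 1.03e-11, edgeR). Its namesake MSTRG.36294 was not called after 9 h (0.02) and rose by 0.76 and 0.77 at 15 and 24 h, the last of which was 0.10 (adjusted p = 0.421, edgeR) with library size as the only scaling.

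HSFB2A, a class B factor, was represented by 3 genes. MSTRG.31787 measured 124, 118 and 119 CPM at 0 h, 181, 206 and 202 after 9 h, 240.1, 230.2 and 288 after 15 h and 479.5, 615 and 612 after 24 h. MSTRG.30708 measured 54.2, 51.2 and 53.4 CPM at 0 h, 94, 101 and 99.4 after 9 h, 139.8, 153 and 184 after 15 h and 314, 334 and 347 after 24 h. Their libraries did not overlap between times, and the log2FC reached log2FC of 2.24 (SE 0.11, adjusted p = 9.53e-10) and 2.65 (SE 0.10, adjusted p = 4.84e-11, edgeR) after 24 h, and MSTRG.31787 held 24.8% of the HSF sum at 0 h and 38.6% after 24 h. The step of MSTRG.31787 from 9 to 15 h (0.36, adjusted p = 0.0177) was lost with library size as the only scaling (0.27, adjusted p = 0.0643), without 15 h replicate 3 (0.24, adjusted p = 0.115) and without 9 h replicate 1 (0.31, adjusted p = 0.0777). The third, MSTRG.35079, was called only after 15 h (1.54, SE 0.42, adjusted p = 0.00623), with 1.86 to 2.92 CPM. HSF4 gene MSTRG.2229, whose Arabidopsis namesake represses heat shock genes, measured 35.6, 40.2 and 36 CPM at 0 h and 129, 98.5 and 115 after 24 h, a log2FC of 1.61 (SE 0.11, adjusted p = 2.68e-08, edgeR). Its smaller rise after 9 h (0.34, adjusted p = 0.0196) was not called without 0 h replicate 1 (adjusted p = 0.0683), 0 h replicate 3 (0.0645), 9 h replicate 2 (0.085) or 9 h replicate 3 (0.0618).

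HSFA2 is the factor that prolongs the heat response in Arabidopsis. The HSFA2 gene with most counts, MSTRG.3946, measured 23.1, 23.4 and 21 CPM at 0 h, 12.1, 13.7 and 11.9 after 9 h, 4.91, 4.65 and 4.0 after 15 h and 1.49, 1.66 and 1.25 after 24 h. The libraries descended from time to time without overlap, with log2FC of -0.84 (SE 0.12, adjusted p = 7.13e-05), -2.32 and -3.94 (SE 0.14, adjusted p = 4.33e-11, edgeR). The other HSFA2 member, CSS021801, stayed under 1 CPM and was not called.

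The HSFA6B genes, named for a factor of abscisic acid and drought responses in Arabidopsis, moved in opposite directions. MSTRG.29876 measured 69.1, 65 and 61.2 CPM at 0 h, 9.36, 13.2 and 10.3 after 9 h, 21.7, 19.5 and 16.9 after 15 h and 21.9, 34.5 and 26.5 after 24 h. It was lowest after 9 h, at a log2FC of -2.57 (SE 0.17, adjusted p = 5.31e-08, edgeR), and after 24 h was still lower than at 0 h, at -1.24 (SE 0.17). MSTRG.45430, at Scaffold736:2759744-2761297, had 0 counts in all 3 libraries at 0 h, 11, 0 and 7 counts after 9 h, 5, 3 and 0 after 15 h, and 148, 71 and 110 counts after 24 h, or 2.01, 1.34 and 1.74 CPM. Set against a floor of 3 counts over the 0 h libraries, the 24 h level was about 156-fold higher (adjusted p = 7.91e-05, edgeR). The floor bounds the 0 h side only. Its call after 9 h (adjusted p = 0.0229) rests on 18 counts and was lost without 0 h replicate 1 (adjusted p = 0.0505), 0 h replicate 2 (0.0556), 9 h replicate 1 (0.0679) or 9 h replicate 3 (0.0505).

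Among the remaining class A factors, HSFA1 types act as the first activators in Arabidopsis. HSFA1D gene MSTRG.24846 measured 10.1, 9.83 and 8.73 CPM at 0 h, 5.78, 5.56 and 5.09 after 9 h, 9.41, 9.54 and 9.74 after 15 h and 22.3, 15.3 and 19.8 after 24 h, lower after 9 h (-0.80, SE 0.14, adjusted p = 0.000224) and higher after 24 h (1.001, SE 0.13, adjusted p = 1.62e-05, edgeR). The other HSFA1D gene, MSTRG.18564, was called after 24 h only (-0.27, adjusted p = 0.0394), a call lost under DESeq2 (adjusted p = 0.122) and without 0 h replicate 1, 2 or 3 (0.0684, 0.0942 and 0.0625), 9 h replicate 2 (0.0513), 15 h replicate 2 (0.0511) or 24 h replicate 3 (0.112). HSF3 gene MSTRG.673 and HSFA8 gene MSTRG.23978 rose by 0.54 and 0.65 after 24 h, and both values turned below 0 with library size as the only scaling (-0.13 and -0.017). HSFA4A gene MSTRG.7006 rose by 1.12 after 24 h (SE 0.08). Its namesake MSTRG.17933 measured 17.3, 18.1 and 17.5 CPM at 0 h, 29.3, 24.2 and 31 after 9 h, 12.5, 7.25 and 8.39 after 15 h and 28.7, 33.4 and 12.3 after 24 h. The low library after 24 h was replicate 3. The gene was called only after 15 h against 0 h (-0.91, adjusted p = 0.0164, edgeR), a call lost without 15 h replicate 2 (0.0696) or 15 h replicate 3 (0.0551), and without 24 h replicate 3 it was called after 24 h at 0.80 (adjusted p = 0.00265) and after 9 h at 0.68 (adjusted p = 0.00565), as it was after 9 h without 24 h replicate 2 (adjusted p = 0.0445).

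HSFA3 gene MSTRG.29434 was lower after 15 h (-0.88, SE 0.21, adjusted p = 0.00226, edgeR), and after 24 h its libraries measured 17.9, 31.9 and 16.5 CPM after 24, 26.1 and 24.6 at 0 h. It was not called after 24 h (-0.17, adjusted p = 0.458), and without the high 24 h replicate 2 it was, at -0.54 (adjusted p = 0.00235). Its call after 9 h (adjusted p = 0.0494) was lost without any one of the 9 libraries of 0, 9 and 15 h (adjusted p from 0.0541 to 0.128). HSFC1 gene MSTRG.49122 changed direction. It measured 8.21, 7.77 and 8.52 CPM at 0 h, 13.8, 13.9 and 11.7 after 9 h, 1.36, 2.13 and 2.77 after 15 h and 3.72, 2.96 and 3.44 after 24 h. It was higher after 9 h (0.68, SE 0.20, adjusted p = 0.0109) and lower after 15 h (-1.97, SE 0.21, adjusted p = 3.29e-06, edgeR) and after 24 h (-1.27), and the libraries of 9 h overlapped with those of no other time. HSFB4 gene CSS003170 was scarce, with 30, 8 and 27 counts at 0 h and 50, 8 and 4 after 9 h. There were none in the 3 libraries after 15 h, and 8, 0 and 0 after 24 h. Set against a floor of 3 counts over the 15 h libraries, it was about 21.7-fold lower there (adjusted p = 0.00851, edgeR). The floor bounds the 15 h side only. After 24 h it was not called (-2.67, adjusted p = 0.103). It was called lower then with library size alone (adjusted p = 0.0476), with a replicate block (0.0467) and without 24 h replicate 1 (0.0159, edgeR), which leaves no count after 24 h.

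**Figure D5:**
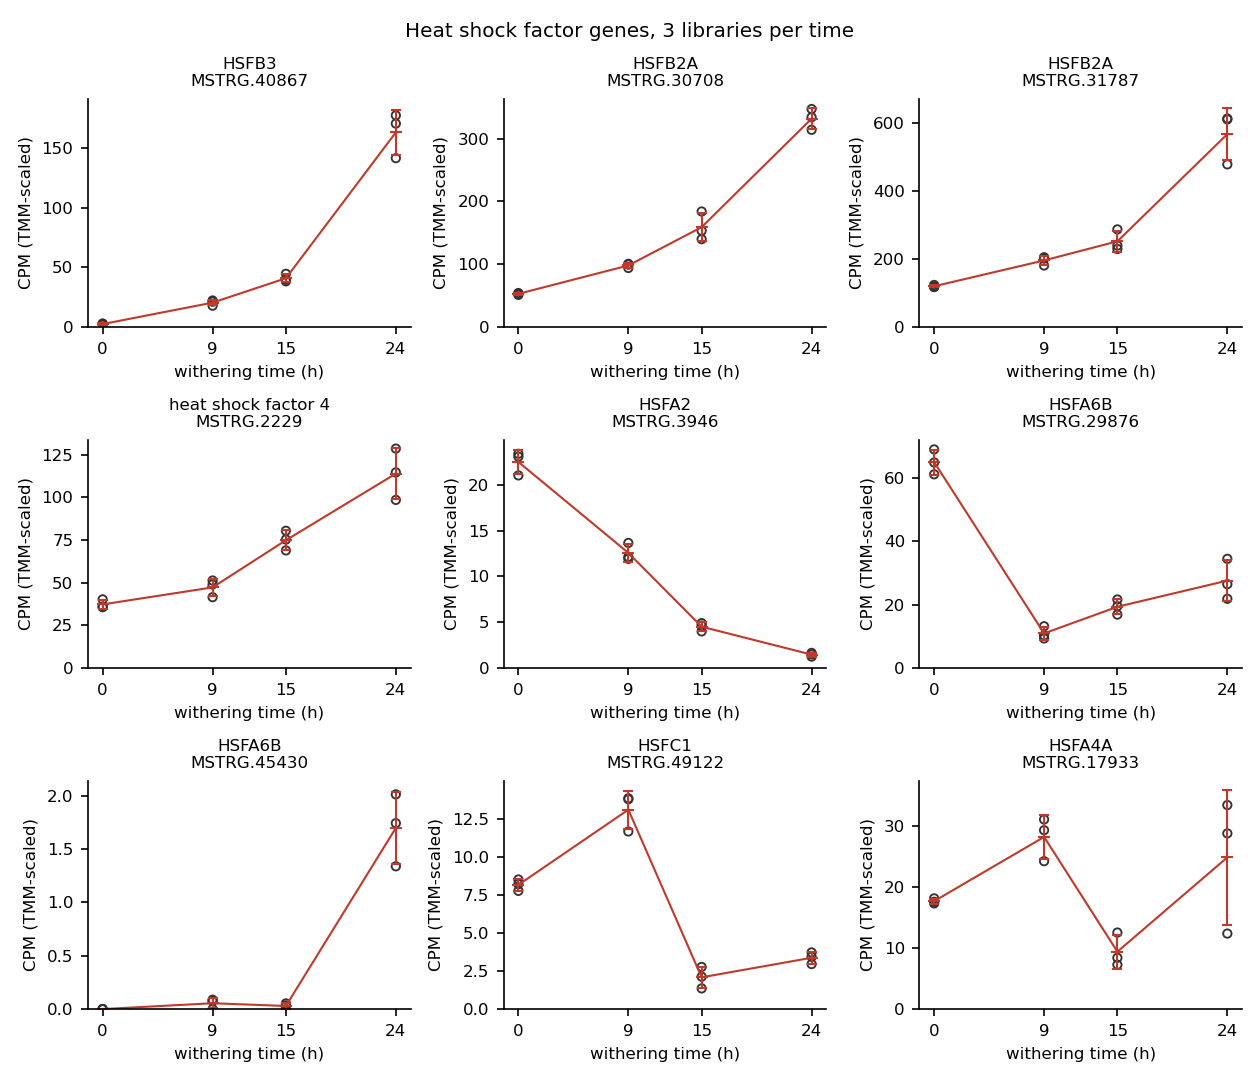
CPM of 9 heat shock factor genes against withering time in hours, each panel with its own scale from 0. Circles are single libraries, and the red line joins the means of 3 libraries with 1 SD. MSTRG.40867, MSTRG.30708, MSTRG.31787 and MSTRG.2229 have rising means over the 4 times, MSTRG.3946 declines through them, MSTRG.29876 is lowest after 9 h, MSTRG.45430 stays near 0 to 15 h, and the circles of MSTRG.17933 after 24 h spread from 12.3 to 33.4 CPM.

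The heat shock factor binding protein, which in Arabidopsis binds HSF trimers and ends their activity, has 1 gene here, MSTRG.19535. It measured 83.5, 66.8 and 81.7 CPM at 0 h, 40.03, 44.4 and 50.03 after 9 h, 71.9, 89.5 and 106 after 15 h and 107, 102 and 119.97 after 24 h. The 9 h libraries were below all others, at a log2FC of -0.79 (SE 0.14, adjusted p = 0.000332, edgeR). The higher level after 24 h (0.51, adjusted p = 0.00501) turned to -0.16 (adjusted p = 0.26) with library size as the only scaling. Without 15 h replicate 1 the gene was also called higher after 15 h than at 0 h, at 0.34 (adjusted p = 0.043).

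BAG proteins dock on HSP70 through their BAG domain and make it release its client. Of the 12 genes, 5 were higher and 2 lower after 9 h, 3 and 2 after 15 h, and 2 and 6 after 24 h. With library size as the only scaling they were 2 and 6 after 15 h and 1 and 8 after 24 h. Of all genes under TMM, 27.1%, 30.3% and 34.7% were higher and 26.8%, 29% and 39.1% lower at these times. BAG2 gene MSTRG.41096 measured 25.8, 27.7 and 26.2 CPM at 0 h, 119, 118 and 111 after 9 h, 25.2, 26.8 and 26.8 after 15 h and 19, 14.1 and 19.7 after 24 h. The rise was seen after 9 h alone (2.12, SE 0.11, adjusted p = 4.12e-09, edgeR), and by 15 h the level was back among the 0 h libraries (-0.02). With library size as the only scaling it was called lower after 15 h (-0.31, adjusted p = 0.0142, edgeR). After 24 h every library was below those of 0 h, and the gene was among the 6 lower ones. BAG6, a heat-induced calmodulin-binding protein in Arabidopsis, had a similar early peak in MSTRG.48615, which measured 0.562, 0.664 and 1.11 CPM at 0 h, 6.6, 6.34 and 9.83 after 9 h, 5.11, 3.33 and 2.86 after 15 h and 0.951, 1.38 and 0.792 after 24 h. It rose by 3.29 on the log2 scale after 9 h (SE 0.33, adjusted p = 2.52e-06) and was not called after 24 h (0.42). The scarce second BAG6 gene, MSTRG.4037, was called after 9 h (2.52, adjusted p = 0.0276), a call lost without 0 h replicate 1 or 2 or any of the 9 h libraries (adjusted p from 0.058 to 0.0929) and with the replicate number as a block (0.0546). It had 8, 7 and 12 counts at 0 h and 0, 5 and 0 after 24 h. Without 24 h replicate 2, the only 24 h library with a count, it was called lower after 24 h (adjusted p = 0.00147, edgeR). That call therefore rests on 24 h libraries without a count. With library size as the only scaling it was also called lower (-2.43, adjusted p = 0.0469, edgeR).

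BAG1 gene MSTRG.45369 rose late instead, from 23.9, 24.2 and 27 CPM at 0 h to 165, 120.26 and 137 after 24 h, a log2FC of 2.49 (SE 0.11, adjusted p = 2.95e-10, edgeR) after 0.63 and 0.98. It took 10.6% of the BAG sum at 0 h and 45.6% after 24 h. The BAG5 genes parted, MSTRG.22321 rising by 0.99 after 9 h (SE 0.09) while MSTRG.1164 fell by 1.33 on the log2 scale (SE 0.30). At 24 h they stood at 0.83 (0.16, adjusted p = 0.142 from edgeR, with library size as the only scaling) and -2.50. BAG3 gene MSTRG.22335, BAG4 gene MSTRG.50492 and the BAG7 genes MSTRG.23961 and MSTRG.47587 were lower after 24 h, with log2FC of -1.04, -2.55, -1.08 and -0.65.

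Genes that work with these chaperones but lie outside the members were taken from lists of descriptions. Of 115 DNAJ genes tested, the partners of HSP70, 41 were higher and 30 lower after 9 h, 49 and 30 after 15 h, and 59 and 38 after 24 h, with a median log2FC of 0.05, 0.22 and 0.40. Of all genes, 27.1%, 30.3% and 34.7% were higher and 26.8%, 29% and 39.1% lower, and the DNAJ shares were 35.7%, 42.6% and 51.3% higher and 26.1%, 26.1% and 33.0% lower. The lists that follow stand beside the same shares of all genes. Of 7 genes of the HSP90 system, 6 were higher and 1 lower after 9 h, 5 and 1 after 15 h, and 3 and 2 after 24 h. Among them, stress-inducible protein genes MSTRG.16362 and MSTRG.2147, named for a co-chaperone that links HSP70 to HSP90, rose by 0.70 and 0.89 after 9 h, and Aha1 domain gene MSTRG.6637, named for an activator of HSP90, by 0.56. Of 21 genes of protein folding in the endoplasmic reticulum, 11 were higher and 2 lower after 9 h, 11 and 4 after 15 h, and 9 and 6 after 24 h. Calnexin 1 gene MSTRG.11441 rose by 1.37, 1.57 and 1.23, whereas calreticulin 3 gene MSTRG.18484 was at -3.71 after 24 h.

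Further chaperonin subunits, 44 genes, were 9 higher and 20 lower after 9 h, 10 and 19 after 15 h, and 7 and 30 after 24 h. The list also took in 21 genes of GroES-like description, which in plants are mostly dehydrogenases, and without them 23 genes remained, of which 2 were higher and 18 lower after 24 h with a median of -1.09. Of 20 Clp genes, protease subunits and chaperones related to HSP101 that work mostly in the chloroplast, 2 were higher and 11 lower after 9 h, 2 and 8 after 15 h, and 3 and 11 after 24 h. Of 28 further genes on a list of heat stress regulators and targets, 11 were higher and 11 lower after 9 h, 11 and 10 after 15 h, and 11 and 12 after 24 h. MBF1C gene MSTRG.25496, named for a coactivator needed for heat tolerance in Arabidopsis, averaged 5.20 CPM at 0 h, 16.3 after 9 h, 20.04 after 15 h and 10.7 after 24 h (log2FC 1.95, SE 0.13, adjusted p = 4.25e-08 after 15 h, edgeR). On the same list, 7 of 9 ascorbate peroxidase genes were lower after 9 h and 8 after 24 h. A further 10 of its genes are described only as winged-helix factors, which does not tell whether they are HSFs, and 5 of these were higher and 2 lower after 24 h.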

How the data were processed

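Tea leaf RNA was sequenced after 0, 9, 15 and 24 h of withering in 3 libraries per time. The table the authors deposited holds unnormalized whole-number read counts by gene, scaffold coordinates and descriptions. Tools listed by the submitters' processing notes are HISAT2 2.0.5, StringTie 1.3.1, FastQC 0.10.1 and Trimmomatic. Build, strandedness and read assignment were not given in the sources used here. Genes with near-identical copies may share reads, and the HSC70-1, HSP21 and HSP101 copies are uncertain in that respect. No member overlapped another gene of the table.

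The 12 libraries were fitted together in edgeR 4.0.16 under R 4.3.3, with TMM scaling, time as a factor, the low-count filter filterByExpr and the quasi-likelihood test, over 26712 genes. Calls were made at a Benjamini-Hochberg adjusted p under 0.05. The SE was derived from the fold change and its F statistic. On simulated data for 9 h against 0 h over 26137 genes, the fit recovered 7 of 67 genes that were given a 1.5-fold change, 34 of 67 given a 2-fold change and 51 of 66 given a 4-fold change (50 of 53 of the last with at least 1 CPM), and it called 6 unchanged genes. No other gene was changed in the simulation, whereas in the data 27.1% of genes were called higher and 26.8% lower after 9 h. The simulated figures therefore do not give the recovery or the false calls of the fit to the data. Library totals of 64931031 to 118261728 counts leave counting error small except for the 15 members under a mean of 1 CPM.

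The members, the gene lists and the tests were chosen with earlier results of these data known. Classes and lists were matched to the wording of the descriptions after these were seen. Named were, per class, the 3 largest rises and 3 largest falls among called genes of at least 1 CPM at one time, the 3 genes of highest mean CPM, and the called HSP90, HSP101, BAG and HSF genes. A few others, such as the remaining HSP70 genes, MSTRG.5384, MSTRG.36151, MSTRG.39863, MSTRG.45337, MSTRG.37825, MSTRG.39853, MSTRG.29865 and the genes outside the members, were named after their values were seen. The list of guard cell markers matched 0 genes. Of the other tissue lists at 24 h, bud and meristem markers were 6 higher and 11 lower of 24 tested, flower markers 24 and 29 of 74, and root markers 6 and 1 of 9. Tried besides were DESeq2 1.42.0, DESeq2 size factors inside edgeR, scaling by library size alone, other low-count filters, a fit of only the times compared, a replicate block, leaving out each library, a fold of at least 2, and other rules for members.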

Additional observations from a re-analysis of the deposited data

How the results depend on the processing

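Requiring a fold of at least 2 left 25 members higher and 10 lower after 9 h, 13 lower after 15 h and 31 higher after 24 h, 6 higher and 8 lower from 9 to 15 h, and 14 higher and 26 lower from 15 to 24 h. Under it small HSP had 6 higher and 7 lower after 9 h, 5 higher after 15 h and 11 higher after 24 h. HSP70 had 0 lower after 9 h and 0 after 15 h, HSP90 had 1 higher and 0 lower after 9 h, 0 lower after 15 h and 1 higher after 24 h, and HSFs had 2 higher and 1 lower after 9 h and 5 higher after 15 h. Without the HSP20-like descriptions, small HSP had 1 higher and 3 lower after 9 h, 1 and 3 after 15 h, and 0 and 4 after 24 h.

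Library size as the only scaling gave 37 members lower after 15 h, 28 higher after 24 h and 18 higher from 15 to 24 h, with 16 small HSP lower after 15 h and 10 higher after 24 h, 1 HSP90 gene higher and 7 HSFs lower after 24 h. At 24 h it kept 64 of 83 calls, lost 16 and turned 3 (MSTRG.45411, MSTRG.17623 at -0.23 and MSTRG.5549 at -0.31), and it moved the small HSP median to -0.58. Among the genes named by the rule, 9 values changed sign. These were MSTRG.45411 (-0.33), MSTRG.673 (-0.13), MSTRG.23978 (-0.017) and MSTRG.19535 (-0.16) after 24 h, MSTRG.13138 (-0.21) after 15 h, and MSTRG.9724 (-0.052), MSTRG.12410 (-0.37), MSTRG.23978 (-0.34) and MSTRG.36294 (-0.37) from 15 to 24 h.

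Fitting only the times compared gave 29 members lower from 9 to 15 h, in place of 18. HSP90 genes lower after 24 h, which were 2, numbered 1 with at least 20 counts in each library, 1 with no filter, 1 with only the times compared, 1 with no minimum row sum and 1 to 2 with a library left out. Leaving out a library gave 38 to 44 members higher and 25 to 27 lower after 9 h, 40 to 42 and 22 to 27 after 15 h, and 47 to 49 and 32 to 38 after 24 h.

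Same-numbered libraries did not deviate together (18 pairs, r from -0.176 to 0.113, against -0.216 to 0.215 for 36 other pairs), so the replicate numbers were not taken to pair the libraries. With the replicate number as a block, 1 HSP90 gene was lower after 24 h, and 2, 0 and 1 calls were lost and 0, 0 and 1 gained after 9, 15 and 24 h. The causes of these changes were not tested.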

Other observations

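A further 52 genes had a matching description but too few counts to be members. Of these, 23 had no count in any library and 29 had between them row sums of up to 118. The small HSP class lost most, with 33 of 76 described genes under the minimum, 14 of them without a count, among them 7 genes of HSP21 and 4 of the 17.6 kDa class II HSP. Of 26 described HSFs, 7 were under it, 5 of them HSFA2, and the HSFA2 gene CSS004006 came nearest to the minimum with 118 counts. Of 25 described HSP70 genes, 7 were under the minimum and 6 had no count, whereas of the 13 described BAG genes only 1 was. A count of 0 over these libraries allows up to 3 counts, which covers counting error only.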
